A study of Homo sapiens with 10 samples.

Results

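The mRNAs that human mitochondria make from their own genome were examined in RPE-1 cells, an established line of telomerase-immortalized human retinal pigment epithelial cells. The comparison was between 4 h of treatment with sulforaphane (SFN), an isothiocyanate from cruciferous vegetables, and 4 h of the vehicle DMSO, with 5 samples in each group. The genes were chosen by name as MT-ND1, MT-ND2, MT-ND4, MT-ND5, MT-ND6, MT-CO1, MT-CO2, MT-CO3, MT-ATP6 and MT-CYB, and all 10 were found among the 28380 genes of the count table and among the 13378 genes with enough counts for a test. The study asked whether SFN acts on cells like a fast, with mitochondria as one of its main readouts, and these transcripts show the mitochondrial genome's own output at that early time. All samples came from 1 cell line. The methods give a cell number for each replicate and describe replicates in general as independent. They do not say whether the 5 were treated on separate days. They also state that the study's own fit accounted for repeated measures, without saying which samples these link. The p-values here therefore measure the spread between these samples only.

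Mitochondrial DNA (mtDNA) is a small circle that is copied many times in each cell. Both of its strands are transcribed as long precursor RNAs by the single-subunit polymerase POLRMT with the factors TFAM and TFB2M. Most mRNAs are flanked by tRNAs, and cutting out the tRNAs frees the mRNAs, which then receive a short poly(A) tail. All the proteins that these mRNAs encode are subunits of the respiratory chain or of ATP synthase, and they are made on the organelle's own ribosomes and assembled with nuclear-encoded partners. In the human genome MT-ND6 is the mRNA of the other strand, and its transcript is known to lack a stable poly(A) tail, unlike the rest.

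By the methods, the libraries were made with a kit that reads the 3′ ends of transcripts, while the sample labels name standard Illumina protocols. On the methods' account, reads would be expected near the end of each transcript, which need not be the end of the annotated gene. The end of each annotated gene is shown here because it holds the stop codon and the border with what follows. Each sequence gives the last 14 bases of the gene and the 14 that follow, read 5′ to 3′ on the strand of the gene in the hg38 reference, and the capitals mark the letters of the stop codon that the genome itself holds.
MT-ND1, chrM:4249-4276: ccccctcaaaccTAagaaatatgtctga
MT-ND2, chrM:5498-5525: actaataatcttaTagaaatttaggtta
MT-CO1, chrM:7432-7459: acataaaatctAGAcaaaaaaggaagga
MT-CO2, chrM:8256-8283: tatttaccctaTAGcaccccctctaccc
MT-ATP6, chrM:9194-9221: acgacaacacaTAAtgacccaccaatca
MT-CO3, chrM:9977-10004: ttgatgagggtctTactcttttagtata
MT-ND4, chrM:12124-12151: cgggttttcctctTgtaaatatagttta
MT-ND5, chrM:14135-14162: tcctaatcacaTAAcctattcccccgag
MT-ND6, minus strand, chrM:14135-14162: ctcgggggaatAGGttatgtgattagga
MT-CYB, chrM:15874-15901: actcaaatgggccTgtccttgtagtata

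Of these genes, 5 end without a complete stop codon in the DNA: MT-ND2, MT-CO3, MT-ND4 and MT-CYB hold 1 base of it and MT-ND1 holds 2, and the poly(A) tail supplies the missing bases in the RNA. The other 5 carry a whole stop codon. MT-ND5 and MT-ND6 lie on opposite strands and end on neighbouring bases, so their printed sequences are the reverse complement of each other. The window after MT-CO1 enters the region antisense to its neighbour, the tRNA gene MT-TS1. Whether the counting used strand is not given in the sources used here. Without strand, reads past these ends could not be told apart from the partner gene's own, which bears on MT-ND5, MT-ND6 and MT-CO1. The last base of MT-ATP6, chrM:9207, is also the first base of MT-CO3. MT-ATP6 and MT-ND4 also share coding bases with a small gene upstream on the same strand. MT-ATP8 and MT-ATP6 overlap by 46 bases at chrM:8527-8572, and MT-ND4L and MT-ND4 by 7, shown in capitals within chrM:10750-10776.
MT-ND4L and MT-ND4: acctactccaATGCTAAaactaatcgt

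The libraries held between 15689294 and 20666692 counts in DMSO, and the SFN libraries between 12375860 and 17308706. Levels are given as TMM-scaled CPM, the count of a gene relative to the library's total count. The groups were compared in edgeR with a quasi-likelihood F test on the counts of all 13378 genes, and p-values were adjusted over all of them (Benjamini-Hochberg). DMSO replicate 1 stood apart from the other libraries over many genes, and values without it are given beside the results. The cells held the epithelial and mesenchymal transcripts KRT8, KRT18 and VIM in abundance, whereas of the markers of differentiated retinal pigment epithelium RPE65 had at most 3 counts in any library and RLBP1 at most 4, and TYR was not among the genes of the table. BEST1, OTX2 and MITF, also genes of this epithelium, had at least 97 counts in every library. The photoreceptor, blood cell and endothelial markers measured had at most 13 counts in any library. Bulk counts cannot tell fewer copies of mtDNA, or fewer mitochondria, from less RNA per copy.

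No mtDNA-encoded mRNA of the 10 differed between SFN and DMSO by the test. Adjusted p-values ran from 0.412 for MT-ND1 to 0.999 for MT-ND5, and no unadjusted p was under 0.05, the lowest being 0.224. Over all genes tested, 3076 of 13378 passed an adjusted p of 0.05 (23%), of which 1214 were higher (9.07%) and 1862 lower in SFN (13.9%). Among the 427 genes at least as abundant as the least abundant of these mRNAs, 74 passed (17.3%). The log2 fold changes of the 10 ranged from -0.18 for MT-CO3 to 0.29 for MT-ND6, with 6 above and 4 below 0, and their median was 0.046, against -0.028 for all genes tested. The groups overlapped for all 10, whereas 19.9% of all genes tested had no overlap between the groups. A p that misses the threshold does not show that the levels were equal, so the intervals carry the information: the 95% intervals of the 10 spanned log2 fold changes from -0.66 to 0.84, that is from 0.632-fold to 1.78-fold, and none reached a change of 1 in either direction. An absolute log2 fold change above 1 together with an adjusted p under 0.05 was met by 8.69% of all genes tested.

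**Figure D1:**
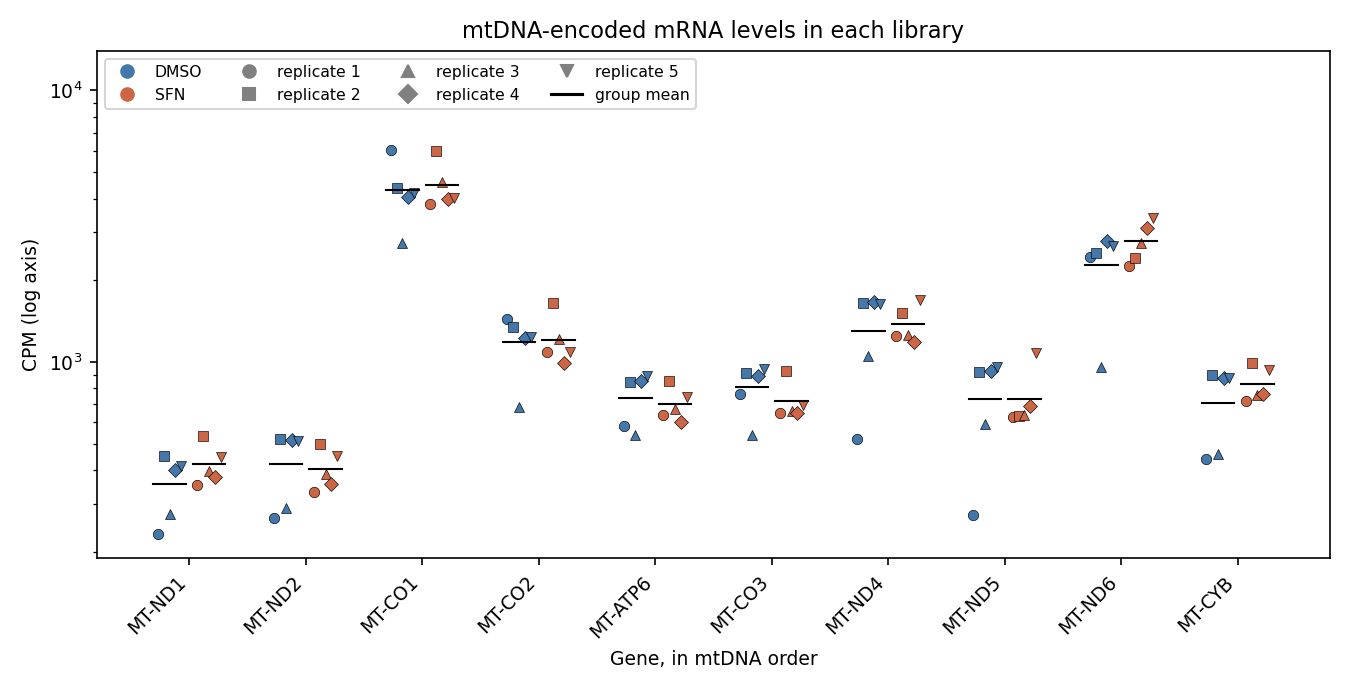
Level of each of the 10 mRNAs in each library, in CPM on a log axis, with genes in mtDNA order and a different marker for each replicate number and short black lines for the group means. For MT-ND4 and MT-ND5 the DMSO replicate 1 point lies below every other library, for MT-CO1 it is the highest, and for MT-ND6 and MT-CO2 the lowest point is DMSO replicate 3.

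Complex I, the NADH dehydrogenase that feeds electrons into the chain, takes 5 of the 10 proteins as core subunits of its membrane arm, MT-ND6 included. MT-ND1 (ENSG00000198888, chrM:3307-4262) encodes the subunit at the quinone-binding end. It measured 233, 451, 275, 402 and 414 CPM in DMSO replicates 1 to 5 and 354, 534, 397, 376 and 446 CPM in SFN replicates 1 to 5. DMSO replicates 1 and 3 were the low libraries, and the other 3 DMSO libraries lay within the range of SFN. The means were 355 ± 95.1 and 421 ± 71.5 CPM (SD, n = 5 each), with a log2 fold change of 0.25 (SE 0.19, 95% interval -0.17 to 0.67), and 0.12 without DMSO replicate 1.

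MT-ND2 (ENSG00000198763, chrM:4470-5511), a proton-pumping subunit of the membrane arm, measured 268, 522, 289, 517 and 513 CPM in DMSO and 331, 500, 389, 355 and 453 CPM in SFN. The 5 SFN values lay between the low pair of DMSO libraries, replicates 1 and 3, and the high 3. SFN against DMSO gave a log2 fold change of -0.058 (SE 0.22, 95% interval -0.53 to 0.41), and -0.19 without DMSO replicate 1.

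MT-ND4 (ENSG00000198886, chrM:10760-12137), also a pumping subunit, had 521, 1643, 1057, 1661 and 1639 CPM in DMSO and 1248, 1512, 1255, 1187 and 1687 CPM in SFN. DMSO replicate 1 was lowest by a wide margin, at a log2 difference of -1.53 from the mean of the other DMSO libraries. With all libraries the log2 fold change was 0.079 (SE 0.27), and without DMSO replicate 1 it was -0.13.

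For MT-ND5 (ENSG00000198786, chrM:12337-14148), the largest of the mtDNA-encoded proteins, the DMSO libraries measured 273, 920, 591, 929 and 956 CPM. SFN replicates 1 to 4 lay close together at 627, 632, 638 and 691 CPM, and replicate 5 was higher at 1079 CPM. The 2 means, 734 ± 298 and 733 ± 195 CPM (SD, n = 5 each), were nearly the same, but 3 of the 5 DMSO libraries exceeded 4 of the 5 SFN libraries. The log2 fold change was -0.00048 (SE 0.30, 95% interval -0.66 to 0.66), the widest interval of the 10, and without DMSO replicate 1 it was -0.22.

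MT-ND6 (ENSG00000198695, chrM:14149-14673), the complex I mRNA of the other strand, had 2446, 2531, 956, 2802 and 2675 CPM in DMSO and 2249, 2423, 2749, 3109 and 3380 CPM in SFN. Here DMSO replicate 3 was the low library and DMSO replicate 1 was close to replicates 2, 4 and 5. With all libraries the log2 fold change of 0.29 was the highest of the 10 (SE 0.25, 95% interval -0.26 to 0.84, adjusted p = 0.473). It was 0.31 without DMSO replicate 1 and 0.089 without DMSO replicate 3, where MT-ND1 at 0.17 and MT-CYB at 0.11 were higher.

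The ratio of MT-ND6 to MT-ND5 counts, the pair whose ends abut on opposite strands, was 8.95 in DMSO replicate 1, between 1.62 and 3.02 in the other DMSO libraries and between 3.13 and 4.50 in SFN. DMSO replicate 1 was therefore outside the range of all other libraries in this ratio, and the other 4 DMSO libraries were all below the SFN libraries. With all libraries the means were 3.83 ± 2.92 in DMSO and 3.87 ± 0.550 in SFN (SD, n = 5 each). The ratio was not tested.

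Complex III, which passes electrons from quinol to cytochrome c, has cytochrome b as its 1 mtDNA-encoded subunit. MT-CYB (ENSG00000198727, chrM:14747-15887) measured 440, 896, 458, 877 and 875 CPM in DMSO and 718, 995, 758, 760 and 932 CPM in SFN. As for MT-ND1 and MT-ND2, DMSO replicates 1 and 3 were the low libraries. This gave a log2 fold change of 0.23 (SE 0.22, 95% interval -0.26 to 0.72), and 0.095 without DMSO replicate 1.

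Complex IV, cytochrome c oxidase, reduces oxygen to water, and its 3 core subunits are encoded in mtDNA. MT-CO1 (ENSG00000198804, chrM:5904-7445), the subunit with the oxygen-binding site, was the most abundant of the 10 mRNAs in CPM and ranked 10 among all genes tested. It measured 6059, 4374, 2739, 4038 and 4207 CPM in DMSO and 3819, 5965, 4609, 3983 and 4018 CPM in SFN. The DMSO libraries held both the highest value, in replicate 1, and the lowest, in replicate 3. The means were 4283 ± 1185 and 4479 ± 883 CPM (SD, n = 5 each), and the log2 fold change was 0.064 (SE 0.20, 95% interval -0.37 to 0.50). It was 0.22 without DMSO replicate 1 and -0.062 without DMSO replicate 3.

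MT-CO2 (ENSG00000198712, chrM:7586-8269) encodes the subunit that takes electrons from cytochrome c. It had 1438, 1350, 681, 1227 and 1236 CPM in DMSO and 1087, 1656, 1216, 996 and 1093 CPM in SFN. DMSO replicate 3 was the lowest library, the other 4 DMSO libraries were above 4 of the SFN libraries, and SFN replicate 2 was the highest of all. The log2 fold change was 0.028 (SE 0.20, 95% interval -0.42 to 0.47), 0.10 without DMSO replicate 1 and -0.12 without DMSO replicate 3.

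MT-CO3 (ENSG00000198938, chrM:9207-9990) is the third core subunit of the oxidase. It measured 762, 912, 540, 888 and 943 CPM in DMSO, and in SFN 4 libraries lay between 648 and 693 CPM with replicate 2 apart at 925 CPM. The log2 fold change of -0.18 was the lowest of the 10 (SE 0.17, 95% interval -0.54 to 0.19, adjusted p = 0.508). It was -0.20 without DMSO replicate 1 and -0.29 without DMSO replicate 3.

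Complex V, the ATP synthase, takes subunit a from MT-ATP6 (ENSG00000198899, chrM:8527-9207), part of the channel through which protons return. It measured 580, 842, 539, 849 and 887 CPM in DMSO and 639, 850, 672, 602 and 744 CPM in SFN. The DMSO libraries again split into a lower pair, replicates 1 and 3, and a higher 3, with a log2 fold change of -0.076 (SE 0.17, 95% interval -0.44 to 0.29). Without DMSO replicate 1 it was -0.16.

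Across the 10 mRNAs the low DMSO library was replicate 1 in 5 and replicate 3 in 5, whereas in SFN replicate 1 was lowest in 7 and replicate 4 in 3. SFN replicate 2 was the highest of its group in 7 and replicate 5 in 3. In DMSO replicate 1 the difference from the mean of the other DMSO libraries was positive for MT-CO1, MT-CO2 and MT-ND6, at log2 values of 0.66, 0.36 and 0.13, and negative for the other 7, down to -1.64 for MT-ND5. The median standard error of the 10 log2 fold changes was 0.210, against 0.168 for genes at least as abundant. With 3746 to 97302 counts per gene and library for these mRNAs, counting error was small beside this spread.

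Leaving out DMSO replicate 1 raised the share of all genes that passed from 23% to 46.1% (22.5% higher and 23.5% lower in SFN), but the count among these 10 mRNAs stayed at 0 and their median log2 fold change was -0.016. Of the alternatives tried, 1 gave calls among the 10. When limma-voom gave each library a quality weight, 59.2% of all genes passed, 30.2% as lower in SFN, and 5 of the 10 mRNAs were among the lower ones. These were MT-ND2 (-0.38), MT-ND4 (-0.29), MT-ND5 (-0.39), MT-CO3 (-0.35) and MT-ATP6 (-0.31 on the log2 scale), with adjusted p-values from 0.00619 to 0.0230.

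In levels per length, as CPM per kb of gene, the mean of the DMSO libraries was highest for MT-ND6 at 4347 ± 1436 (SD, n = 5), followed by MT-CO1 at 2778 ± 768 and MT-CO2 at 1734 ± 432. MT-ATP6 at 1086 ± 243, MT-CO3 at 1032 ± 211 and MT-ND4 at 946 ± 368 CPM per kb came next, with means closer together than the SD between libraries. The genes were measured in the same libraries, so this SD does not settle their order, which was not tested. MT-CYB at 621 ± 208 stood above MT-ND2 at 405 ± 126, MT-ND5 at 405 ± 164 and MT-ND1 at 371 ± 99.5 CPM per kb, and the last 3 could not be ordered. In SFN the order was the same down to MT-ATP6. MT-ND4 at 1000 and MT-CO3 at 913 CPM per kb then stood in the opposite order, and MT-ND1 at 441 and MT-ND5 at 405 were above MT-ND2 at 389 CPM per kb. If the libraries read 3′ ends, as the methods give, they count about 1 read per transcript whatever its length. Counts then also depend on the tail and sequence at the end. A level per length is therefore a scale for comparison and not a count of molecules. This bears on the first place of MT-ND6, whose transcript is known to lack a stable tail. Without strand its counts could also include reads of MT-ND5, which was not tested.

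**Figure D2:**
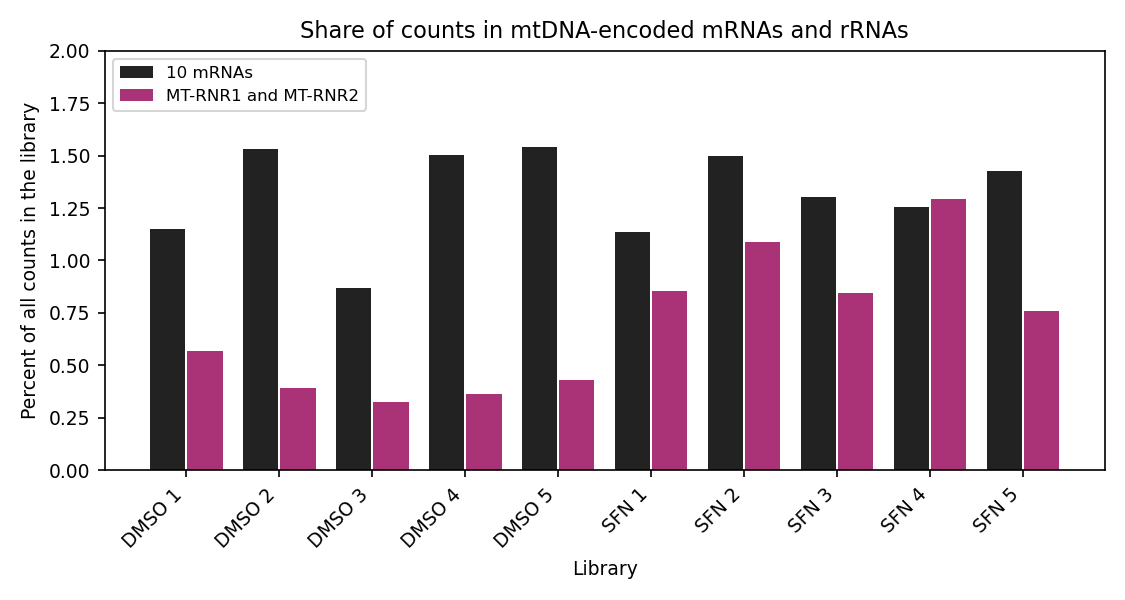
Share of each library's total count taken by the 10 mRNAs and by the mitochondrial rRNAs MT-RNR1 and MT-RNR2 together, in percent, with 1 pair of bars per library. The mRNA bars cover 0.870 to 1.54% in DMSO and 1.14 to 1.50% in SFN, while the rRNA bars are at most 0.571% in DMSO and at least 0.760% in SFN.

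Together the 10 mRNAs took 1.15, 1.53, 0.870, 1.50 and 1.54% of all counts in DMSO replicates 1 to 5 and 1.14, 1.50, 1.30, 1.25 and 1.43% in SFN. The means were 1.32 ± 0.299% and 1.32 ± 0.143% (SD, n = 5 each). DMSO replicate 3 had the lowest share and the ranges overlapped throughout.

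**Figure D3:**
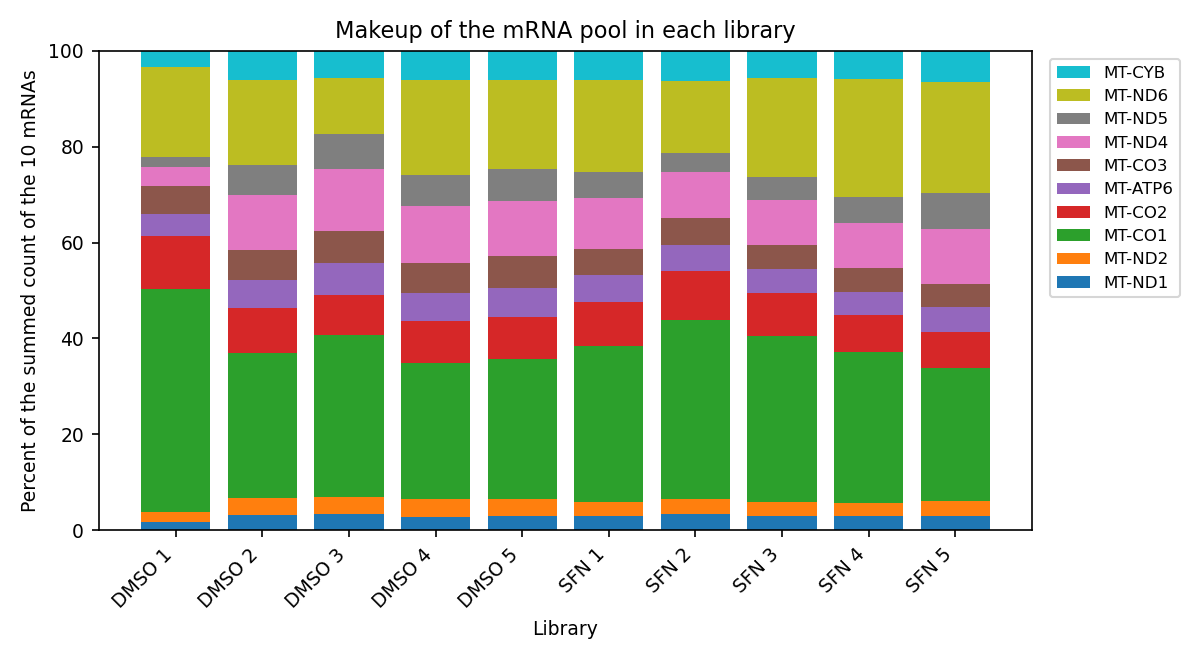
Share of each of the 10 mRNAs in their summed count, in percent, as 1 stacked bar per library. MT-CO1 takes 46.5% in DMSO replicate 1 and 28.5 to 33.7% in the other DMSO libraries. The MT-CO3 segment is narrower in every SFN library than in any DMSO library. Relative to this pool, 12.2% of all genes tested had no overlap between the groups.

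Within this pool MT-CO1 accounted for 33.7 ± 7.46% of the summed count in DMSO and 32.7 ± 3.60% in SFN, and MT-ND6 for 17.3 ± 3.19% and 20.5 ± 3.66% (SD, n = 5 each). MT-CO3 took 5.86, 6.32, 6.65, 6.26 and 6.57% of the pool in DMSO and 5.53, 5.78, 4.96, 5.13 and 4.77% in SFN. It was the 1 mRNA of the 10 whose share did not overlap between the groups. Over all genes tested, 12.2% had no overlap when expressed relative to this pool, so 1 of 10 is near that share. In a fit scaling all genes to the summed count of the 10 mRNAs, the log2 fold change of MT-CO3 was -0.27 (adjusted p = 0.59). That sum ran from 0.870 to 1.54% of all counts in DMSO, and every gene was scaled by it. The MT-CO3 value in this fit is its change relative to the pool, and it did not pass the test. Because the spread of the sum entered every gene, the miss does not show that the share was equal.

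Among the other genes of mtDNA the test found differences for both rRNAs, 1 mRNA and 2 tRNA genes. If the libraries read 3′ ends, as the methods give, rRNA and tRNA counts also depend on the tail and sequence at the end. Differences in these counts are therefore not by themselves differences in RNA abundance, which was not tested. MT-RNR1 and MT-RNR2, the RNAs of the small and large mitochondrial ribosomal subunits, were both higher in SFN. They lie at chrM:648-1601 and chrM:1671-3229, upstream of all the mRNAs on the strand that carries most of them. MT-RNR1 measured 1527, 706, 567, 576 and 809 CPM in DMSO and 2004, 2791, 1891, 3821 and 1515 CPM in SFN. DMSO replicate 1 was just above the lowest SFN library, replicate 5, and the other 4 DMSO libraries were below all SFN libraries. The log2 fold change was 1.52 (SE 0.32, 95% interval 0.82 to 2.22, adjusted p = 0.0049), a 2.87-fold difference, and it was 1.85 without DMSO replicate 1.

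MT-RNR2 had 4921, 3009, 2482, 2856 and 3204 CPM in DMSO and 6810, 8808, 6748, 9267 and 6216 CPM in SFN, with no overlap. Its log2 fold change was 1.20 (SE 0.20, 95% interval 0.77 to 1.63, adjusted p = 0.000996), a 2.30-fold difference. Both rRNAs passed the test in 22 of 22 alternatives, and the lower bounds of their intervals, 0.82 and 0.77, exceeded the log2 fold change of each of the 10 mRNAs, although the difference from the mRNAs was not itself tested. The ratio of summed rRNA counts to summed counts of the 10 mRNAs was 0.242 to 0.495 in DMSO and 0.532 to 1.03 in SFN. All genes of mtDNA together took 1.25 to 2.07% of the counts in DMSO and 2.06 to 2.69% in SFN.

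**Figure D4:**
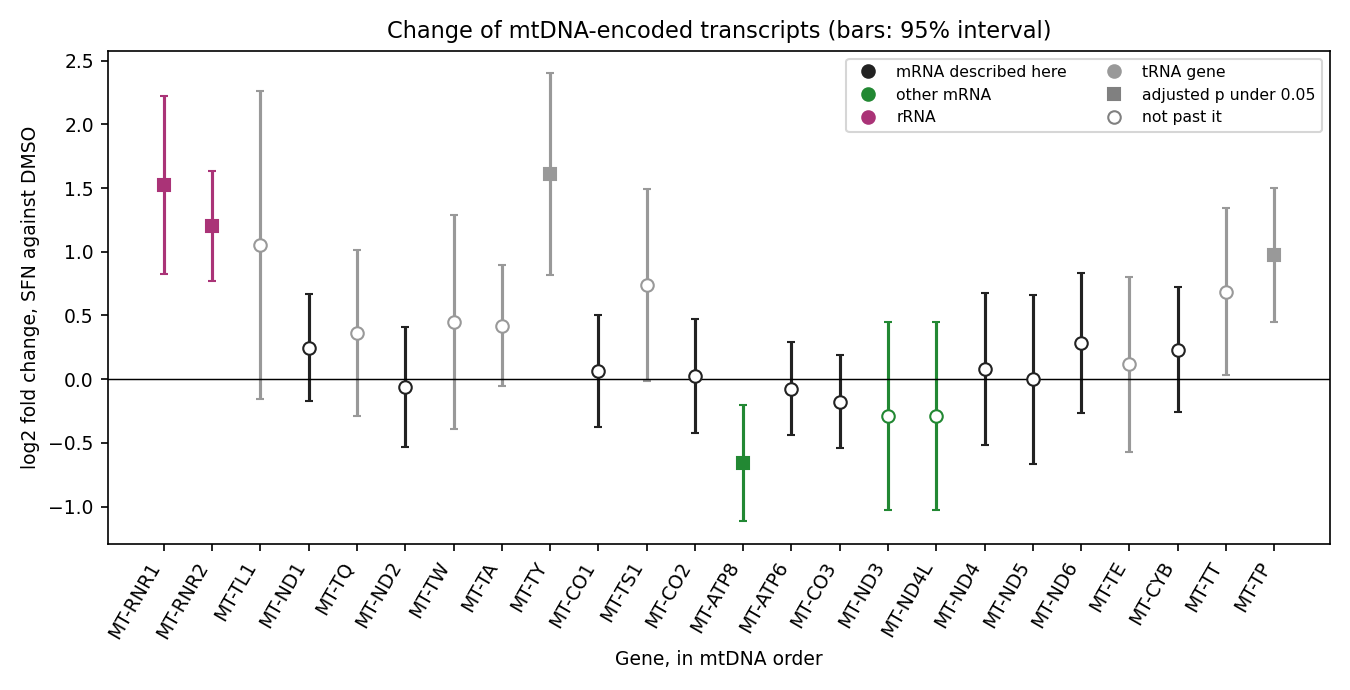
Log2 fold change, SFN against DMSO, of the mtDNA-encoded transcripts tested, with bars for the 95% interval of edgeR's fit. The intervals of the 10 mRNAs all cross 0, those of MT-RNR1 and MT-RNR2 lie above 0, and that of MT-ATP8 lies below it.

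Of the 3 mRNAs of mtDNA that are not among the 10, MT-ATP8 was lower in SFN. It encodes a small ATP synthase subunit on the same mRNA as MT-ATP6 and measured 193, 207, 93.1, 191 and 164 CPM in DMSO and 97.3, 137, 91.4, 88.6 and 124 CPM in SFN. The groups overlapped through DMSO replicate 3. The log2 fold change was -0.66 (SE 0.21, adjusted p = 0.0418), and it passed in 15 of 22 alternatives, with adjusted p-values from 3.97e-05 to 0.103. The call was lost by limma-voom and when DMSO replicate 2, 4 or 5 or SFN replicate 1, 3 or 4 was left out. MT-ATP8 counts were 0.173 to 0.333 of the MT-ATP6 counts in DMSO and 0.136 to 0.167 in SFN, with no overlap. MT-ND4L and MT-ND4 also share an mRNA, and their ratio overlapped, at 0.120 to 0.151 in DMSO and 0.0806 to 0.151 in SFN. Neither ratio was tested. The 3′ end of the mRNA that carries MT-ATP8 and MT-ATP6 lies at the end of MT-ATP6, shown among the sequences above.

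MT-ND3 and MT-ND4L, small complex I subunits, both had log2 fold changes of -0.29 (SE 0.34, adjusted p = 0.60 each). MT-ND3 was at 525 CPM in DMSO replicate 1 and between 109 and 270 CPM in all other libraries, and its log2 fold change was 0.16 without that library. MT-ND4L, on the mRNA it shares with MT-ND4, was at 62.8 CPM in DMSO replicate 1 against 160 to 239 CPM in the other DMSO libraries, and its log2 fold change was -0.51 (adjusted p = 0.054) without it. The table held 19 tRNA genes. Of these, 9 were tested, and MT-TY (1.61, adjusted p = 0.0072) and MT-TP (0.97, adjusted p = 0.0123) were higher in SFN and none lower. Without DMSO replicate 1 the count was 6 of 9, with MT-TQ (0.77, adjusted p = 0.00070), MT-TW (0.995, adjusted p = 0.0017), MT-TA (0.62, adjusted p = 0.0062) and MT-TT (0.88, adjusted p = 0.013) also higher. Of all genes tested, 9.07% were higher in SFN with all libraries and 22.5% without DMSO replicate 1. Both mean levels of MT-TY were low, at 0.571 CPM in DMSO and 1.73 CPM in SFN. MT-TS1, antisense to the sequence that follows the end of MT-CO1, had a log2 fold change of 0.74 (adjusted p = 0.15). Its counts came to between 2.02 and 7.97% of those of MT-CO1.

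Nuclear DNA holds copies of mtDNA segments whose reads can be hard to place. The 38 annotated pseudogene copies of mtDNA protein genes in the table took counts equal to 0.763 to 1.47% of those of the 10 mRNAs in DMSO and 0.624 to 0.748% in SFN. Close copies were MTCO1P12, 98.6% identical to MT-CO1 over the aligned bases, and MTATP6P1, 98.5% identical to MT-ATP6. Others were MTND2P28, 98.4% identical to MT-ND2 over 1042 bases, and MTCO3P12, 98.2% identical to MT-CO3 over 547 bases. MTATP6P1 went from 93.4 to 74.7 CPM, a log2 fold change of -0.32 (adjusted p = 0.0489), which passed in 9 of 22 alternatives, with adjusted p-values up to 0.239, and was lost when any library other than DMSO replicate 1 or SFN replicate 2 was left out. The copies MTRNR2L12 and MTRNR2L8 of the large rRNA gene had log2 fold changes of 1.11 (adjusted p = 0.0025) and 1.07 (adjusted p = 0.0269). The first passed in 22 of 22 alternatives and the second in 13 of 21, and it was lost without DMSO replicate 2, 4 or 5 or SFN replicate 1, 2 or 4. Their reads cannot be told apart from those of MT-RNR2 where the sequences match.

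The nuclear genes that make and handle these mRNAs were read from lists. Of all genes tested, 9.07% were higher and 13.9% lower in SFN, and 22.5% and 23.5% without DMSO replicate 1. The list counts below are to be read beside these shares, and no list was tested as a set. Of 11 genes of mtDNA transcription, 0 were higher and 2 lower in SFN, with a median log2 fold change of -0.36, or -0.16 without DMSO replicate 1. POLRMT, the mitochondrial RNA polymerase on chromosome 19 at 617221 to 633537, was lower in every SFN library. It measured 22.4, 32.0, 31.9, 28.4 and 28.2 CPM in DMSO and 14.1, 13.4, 14.1, 12.6 and 10.9 CPM in SFN. Its log2 fold change was -1.14 (SE 0.13, adjusted p = 7.4e-05), and it passed in 22 of 22 alternatives. MTERF2, a member of the family of mitochondrial termination factors, was the other, at 13.3 CPM in DMSO and 6.16 CPM in SFN (-1.11, adjusted p = 0.00018).

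TFAM, which packages mtDNA and opens its promoters, had 146 ± 11.4 CPM in DMSO and 153 ± 12.4 CPM in SFN (SD, n = 5 each). Its log2 fold change was 0.068 (95% interval -0.15 to 0.28, adjusted p = 0.69). The promoter-melting factor TFB2M (-0.25, adjusted p = 0.27) and the elongation factor TEFM (-0.61, adjusted p = 0.087) did not pass the test, and without DMSO replicate 1 they were at -0.13 and -0.34.

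Among 18 genes of mitochondrial RNA processing and decay, 1 was higher and 6 lower in SFN, with a median of -0.12. Without DMSO replicate 1 there were 4 higher and 8 lower, with a median of -0.064, and leaving out any other library gave 0 or 1 higher and 4 or 5 lower. FASTKD2, an RNA-binding protein of mitochondrial RNA granules, was at 50.6 CPM in DMSO and 19.8 CPM in SFN (-1.35, adjusted p = 1.4e-05). PDE12, which removes poly(A) tails from mitochondrial RNA, was at 69.9 and 32.6 CPM (-1.10, adjusted p = 0.00014). FASTKD3, of the same family as FASTKD2, had a log2 fold change of -1.30 (adjusted p = 0.00033), and ELAC2, which cuts the 3′ ends of tRNAs from the precursor, had -0.40 (adjusted p = 0.011). FASTK, which is needed for MT-ND6 mRNA, was the 1 higher gene (0.57, adjusted p = 0.019). The calls for FASTK and ELAC2 each held in 19 of 22 alternatives, and that for FASTK was lost without DMSO replicate 4 or 5.

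MTPAP, the mitochondrial poly(A) polymerase that makes the tails and completes the stop codons, was at 22.8 CPM in DMSO and 17.3 CPM in SFN (-0.39, adjusted p = 0.031), a call that held in 11 of 22 alternatives and was lost without DMSO replicate 2, 3, 4 or 5 or SFN replicate 1, 2 or 3. LRPPRC, which stabilizes the mRNAs together with SLIRP, had 193 and 207 CPM (0.10, adjusted p = 0.54). SLIRP was at 116 CPM in DMSO replicate 1 and 25.3 to 33.8 CPM in the other DMSO libraries. Its log2 fold change was -0.21 (adjusted p = 0.77) with all libraries and 0.47 (adjusted p = 0.0386) without that one.

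Of 15 genes of mtDNA replication and nucleotide supply, 1 was higher and 4 lower in SFN, with a median of -0.00088. Without DMSO replicate 1 there were 3 higher and 6 lower, with a median of 0.053. The replicative helicase TWNK went from 58.9 to 27.1 CPM (-1.12, adjusted p = 1.3e-05), and the nuclease MGME1 was the higher one (0.50, adjusted p = 0.0025). The other 3 lower genes were EXOG (-0.71), DNA2 (-0.68) and LIG3 (-0.59), which act in mtDNA repair and end processing. Of 13 translation factors 2 were higher, GFM2 (0.64, adjusted p = 0.014) and MTRF1 (0.45), which work in ribosome recycling and release. The call for MTRF1 held in 12 of 22 alternatives and was lost when any library other than DMSO replicate 1 or SFN replicate 1 or 5 was left out. The count of higher translation factors was 4 without DMSO replicate 1. TACO1, an activator of MT-CO1 translation, was the 1 lower gene, at 28.2 CPM in DMSO and 17.5 CPM in SFN (-0.69, adjusted p = 0.0032).

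**Figure D5:**
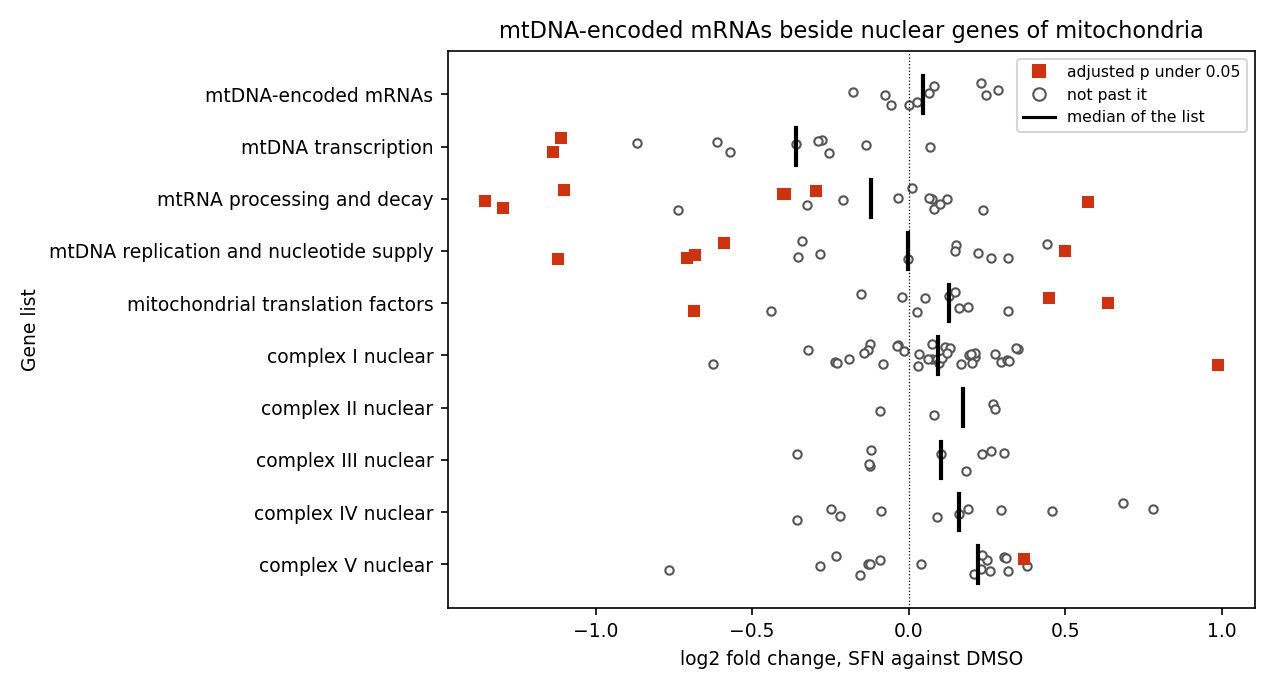
Log2 fold change, SFN against DMSO, of each gene of the mtDNA-encoded mRNAs and of the nuclear lists, 1 point per gene, with red squares for an adjusted p under 0.05 open circles for the rest and a black line for the median of each list. All 10 mRNAs lie between -0.18 and 0.29, and the lists of transcription, of RNA processing and of mtDNA replication hold points below -1.

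The nuclear-encoded partners in the same complexes were mostly without a call when all libraries were used. In SFN 1 of 36 tested genes of complex I was higher, NDUFA13 (0.99, adjusted p = 0.038, mean levels 0.690 and 1.37 CPM), and of 18 genes of complex V 1 was higher, ATP5F1B (0.37, adjusted p = 0.026, mean levels 317 and 409 CPM). NDUFA13 passed in 10 of 21 alternatives and was lost without DMSO replicate 2, 4 or 5 or SFN replicate 1, 3, 4 or 5. ATP5F1B passed in 13 of 22 and was lost without DMSO replicate 2, 4 or 5 or SFN replicate 1. None of the 4, 9 and 11 genes of complexes II, III and IV passed. Without DMSO replicate 1 the counts of higher genes were 28, 3, 6, 10 and 16 for complexes I to V, with 1 lower in complex I, and the medians lay between 0.39 and 0.74. Of all genes tested without that library 22.5% were higher and 23.5% lower, while the mtDNA-encoded mRNAs had 0 in each direction. The difference between the nuclear and the mtDNA-encoded subunits was not itself tested.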

How the data were processed

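RNA was sequenced from 10 RPE-1 samples, 5 treated with SFN and 5 with DMSO for 4 h, grouped by their labels. The methods name 3′-end libraries and the Bluebee pipeline, whereas the sample labels name standard Illumina protocols. The submitters' processing notes name FastQC, STAR, featureCounts, edgeR and hg38/GRCh38. Strand, molecular identifiers and multi-mapping rules are not given in the sources used here. The authors deposited raw counts per gene, without normalization. Counts were filtered (filterByExpr), scaled by TMM and tested by edgeR 4.0.16 (glmQLFit, glmQLFTest) with limma 3.58.1 and DESeq2 1.42.0 as alternatives in R 4.3.3, after the test was tried on simulated data. Standard errors were the log2 fold change, without its sign, over the square root of F. Positions are from GENCODE 44, which held 28145 of the 28380 identifiers, and identities from BLAST 2.17.0. No replicate pair matched within sampling noise (chi-square per degree of freedom 3.50 to 243). Members and lists were chosen with earlier results of these data known. The text names all members, other mtDNA genes, MT-T rows by count with those called, up to 5 called genes per list with the largest change, and TFAM, POLRMT, TFB2M, TEFM, LRPPRC, SLIRP and MTPAP. Alternatives covered scaling, test, filter, a replicate block, a fold change limit and leaving out each replicate.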

Additional observations from a re-analysis of the deposited data

Results flagged for a closer look

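In 90 groups of 5 values, 1 library stood apart from the other 4 in 16, by the gap to its nearest neighbour over the range of the group (Dixon's ratio, critical value 0.71), where chance alone gives about 4.5. DMSO replicate 1 was the library in 8 of them and DMSO replicate 3 in 2. Among the 10 mRNAs the ratio was 0.721 for MT-CO2 and 0.808 for MT-ND6, both for a low DMSO replicate 3, 0.839 for MT-CO3 in a high SFN replicate 2 and 0.858 for MT-ND5 in a high SFN replicate 5. For the ratio of MT-ND6 to MT-ND5 counts it was 0.809 for a high DMSO replicate 1. Among the other mtDNA genes it was 0.748 for MT-RNR1 and 0.762 for MT-ND3, both high in DMSO replicate 1, and 0.805 for MT-ND4L, high in SFN replicate 5.

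Among nuclear genes DMSO replicate 1 stood apart for TEFM (0.763), MTERF2 (0.717), SLIRP (0.907), LIG3 (0.860) and DNA2 (0.741). SFN replicate 2 stood apart for TEFM (0.725) and ATP5F1B (0.781), and SFN replicate 1 for TWNK (0.754).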

How the results depend on the processing

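The count of the 10 mRNAs called lower was 5 with limma-voom quality weights and 0 in all other settings tried, and none was called higher in any. Of 220 values of the 10 mRNAs under alternatives, 182 kept their direction and their side of the threshold, 34 changed sign, MT-ND4 with quality weights among them, and the other 4 became called without changing sign. The cause was not tested. The number of all genes past the threshold, 3076, was 1939 when scaled to the sum of the 10 mRNAs, 7915 with quality weights, 1163 with the fold change limit added and 2383 to 6251 when 1 library was left out, the highest without DMSO replicate 1. Of the calls 39.5% were higher in SFN, against 27.5% when scaled by library size alone and 21.8% when scaled to the mRNA sum, and 48.9% both with quality weights and without DMSO replicate 1. The median log2 fold change of all genes was -0.028, and it was -0.11 by library size and -0.17 by the mRNA sum. Replicate numbers gave no clear pairing of the samples (correlations -0.27 to 0.48, with 1 of 5 DMSO samples correlating best with its own number). DMSO replicates 2 to 5 all correlated best with SFN replicate 5, and the check could not exclude pairing. The replicate block called 2441 genes and 0 of the 10 mRNAs.

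Log2 fold changes of the opposite sign with quality weights were -0.048 for MT-ND1, -0.29 for MT-ND4, -0.077 for MT-CO2, -0.085 for MT-CYB, 0.049 for MT-ND3 and 0.51 for SLIRP. Scaled by library size they were -0.038 for MT-ND4, -0.0045 for MT-CO1, -0.052 for MT-CO2 and -0.014 for TFAM. Scaled to the mRNA sum they were -0.030 for MT-ND4, -0.043 for MT-CO1, -0.062 for MT-CO2, -0.054 for TFAM and -0.055 for LRPPRC. With quantile normalization they were -0.23 for MT-CO1, -0.070 for MT-CO2, -0.023 for TFAM and 0.079 for SLIRP, and with upper quartile scaling -0.0045 for MT-CO2. For MT-ND5 the value was 0.021 with DESeq2 size factors and by DESeq2, 0.11 by limma-voom and 0.096 with the replicate block, and for SLIRP it was 0.040 by limma-voom and 0.054 with the block. Leaving out 1 library gave -0.19 to 0.029 for MT-ND2, -0.13 to 0.18 for MT-ND4, -0.22 to 0.11 for MT-ND5, -0.062 to 0.22 for MT-CO1, -0.12 to 0.10 for MT-CO2, 0.089 to 0.37 for MT-ND6, -0.48 to 0.16 for MT-ND3 and -0.36 to 0.47 for SLIRP, the last 2 positive without DMSO replicate 1. Depth was not the limit for the 10 mRNAs, whose spread between libraries exceeded counting error.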

Other observations

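The nuclear-encoded genes whose levels followed the mean log2 CPM of the 10 mRNAs most closely over the 10 libraries were VIM-AS1 (Pearson r 0.93, Spearman rho 0.89), SYTL2 (0.93 and 0.93), AC027682.3 (0.90 and 0.52), PYROXD2 (0.89 and 0.64) and NDRG3 (0.85 and 0.85), from 10029 genes ranked by r. The points share library, depth and treatment group, and the values are a description of these 10 libraries.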
